A study of Mus musculus with 4 samples.

Results

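The 43 DNA replication genes described here were taken by symbol from a list of factors that license origins, unwind DNA, copy it, join it and supply its nucleotides. All 43 symbols were found among the 25239 of the count tables, and all 43 passed the filter on low counts that left 14525 genes for testing. The samples were mouse embryonic stem cells (mESC) of genotype Ogt fl/fl, in which floxed Ogt, the gene for O-GlcNAc transferase, can be deleted by a Cre recombinase. The Ogt iKO group held 2 libraries of polyadenylated RNA from cells kept for 6 days in 4-OHT (4-hydroxytamoxifen), and the control group held 2 libraries from cells of the same genotype kept without 4-OHT for the same 6 days. The labels do not name the promoter that drives the recombinase. Cells of both groups grew in LIF and serum replacement on mitomycin C-treated feeder fibroblasts and were sorted as viable cells away from the feeders, and the treated cells alone were also sorted for YFP. The labels name no cells with intact Ogt that received 4-OHT and do not say whether replicates came from separate clones or cultures, so the ligand, the YFP gate and the loss of Ogt cannot be told apart, and p-values measure only the spread between these libraries.

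DNA replication starts at origins that the origin recognition complex (ORC), CDC6 and CDT1 load with rings of MCM2 to MCM7 before S phase. At firing, CDC45 and the GINS complex join each ring to form the CMG helicase, and polymerases alpha, delta and epsilon then copy the unwound strands with the sliding clamp PCNA, its loader RFC and the single-strand binder RPA. FEN1 and LIG1 process and seal the fragments of the lagging strand, while ribonucleotide reductase and thymidylate synthase supply deoxynucleotides. Embryonic stem cells divide fast, spend much of their cycle in S phase, and many of these genes are known targets of E2F transcription factors.

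Of the 43 genes, 38 were lower and 0 were higher in Ogt iKO. A gene was called when its p from the quasi-likelihood test of edgeR, adjusted over all genes tested by the Benjamini-Hochberg method, was under 0.05. DESeq2 also called 38 lower and 0 higher, and at an unadjusted p under 0.05 edgeR likewise had 0 above 0. Among all genes tested 65.3% were called (32.0% lower, 33.2% higher), so calls were common in this comparison and the share of members is to be read against those values. The median log2 fold change of the members was -0.64, or 64.3% of the control level, beside 0.02 for all genes. With a fold of at least 1.5 in either direction also asked, 24 members were called, all of them lower. Of all genes, 39.1% passed in either direction and 16% passed as lower. With a fold of at least 2, 6 members were lower, against 6.04% of all genes. Both Ogt iKO libraries lay below both controls for 42 of the 43 members, where 40.9% of all genes tested did so. Gins3 had both libraries above instead, so that no member's groups overlapped, as was the case for 83.2% of all genes.

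**Figure D1:**
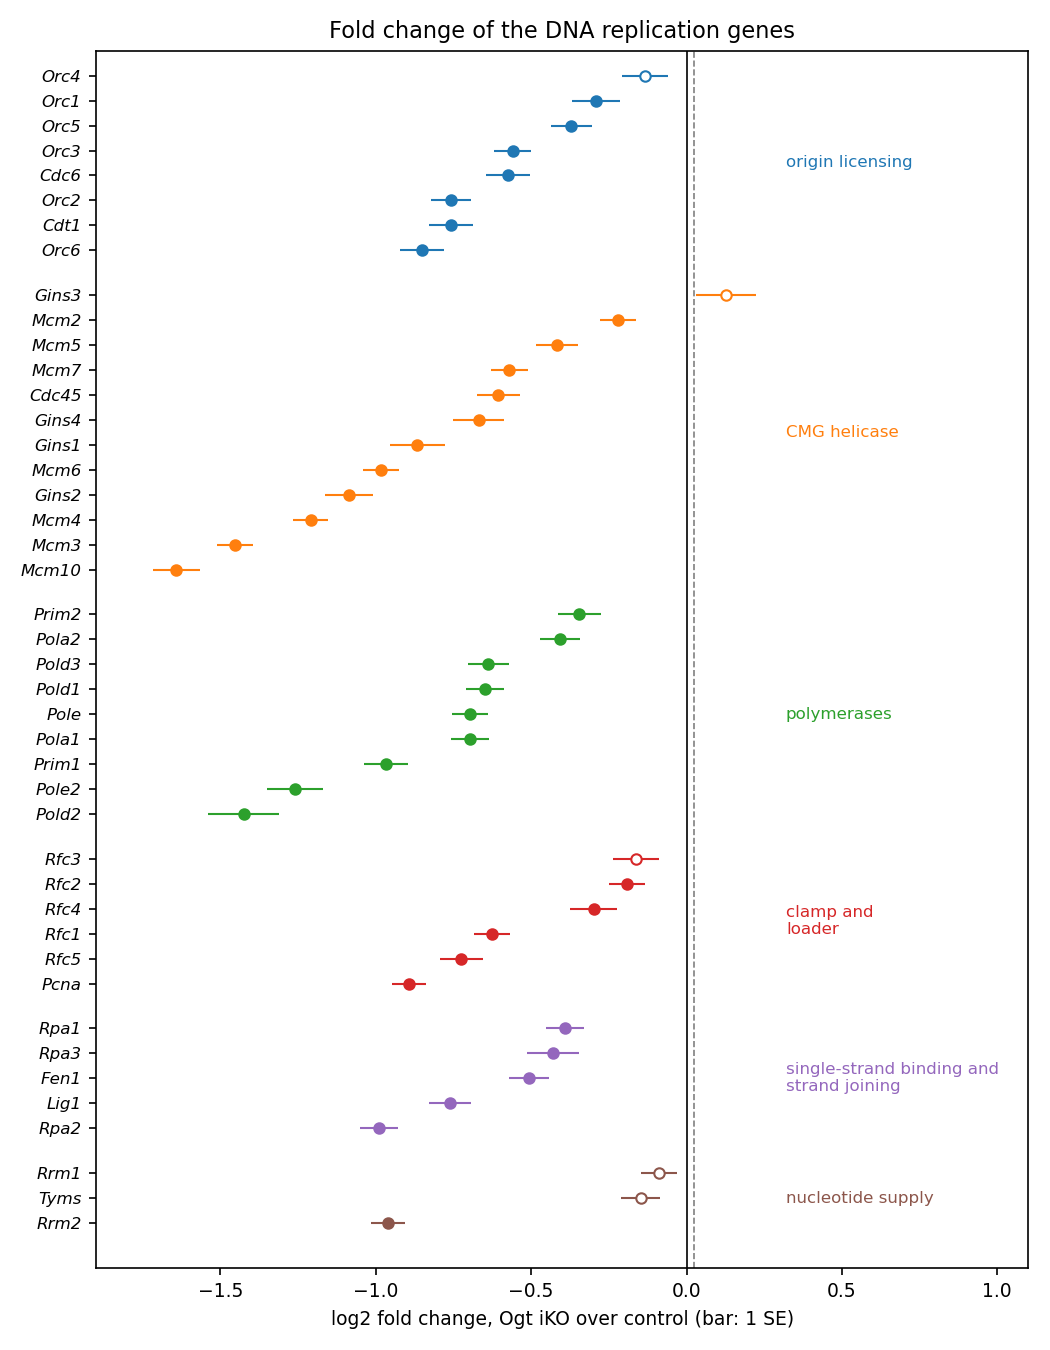
Log2 fold change of the 43 genes in Ogt iKO over control (x axis), with bars of 1 SE, grouped by role; filled points passed an adjusted p under 0.05 and open points did not, and the dashed line marks the median of all genes tested. The 38 filled points all lie left of 0, from -1.64 (Mcm10) to -0.19 (Rfc2), and Gins3 is the only point right of 0.

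The members sat in the lower part of the distribution over all genes. Of them 31 had a log2 fold change at or under the 25% quantile of all genes tested (-0.40), 13 at or under the 10% quantile (-0.80) and 42 under the median. The summed counts of the 43 genes took 0.730% and 0.769% of all counts in the Ogt iKO libraries and 1.06% and 1.04% in the controls, a share that does not use the scaling factors. In bulk RNA, fewer cells in S phase and less of these RNAs per cell cannot be told apart.

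**Figure D2:**
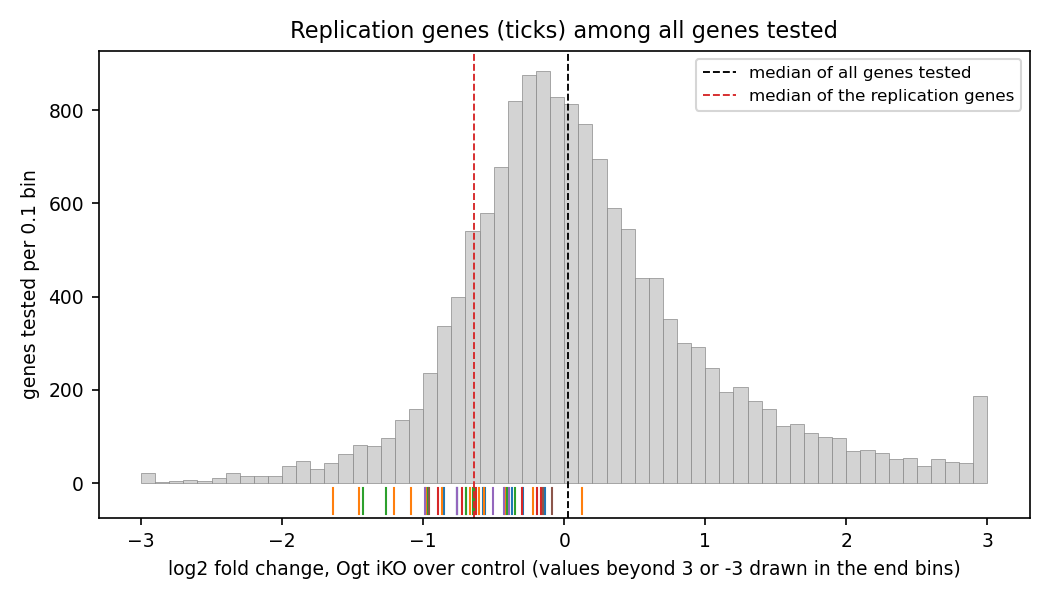
Histogram of the log2 fold changes of the 14525 genes tested (x axis, Ogt iKO over control; y axis, genes per bin, with values beyond the axis in the end bins), with 1 tick below the axis for each replication gene, coloured by role. The ticks cluster left of the median of all genes (0.02, black line), around their own median of -0.64 (red line).

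Counts of Ogt, the deleted gene, were 437 and 389 after 4-OHT and 2963 and 3108 without it. All 10 embryonic stem cell markers examined were present in every library, with no gene at 0, although 9 of them were lower in Ogt iKO (90%, against 32.0% of all genes tested). Their median log2 fold change was -0.73, beside -0.64 for the replication genes, with Klf4 at 28.4%, Sox2 at 33.2% and Nanog at 36.2% of control, and the part of this shift in the replication genes was not tested. The 15 fibroblast markers were also present in every library, with no gene at 0, and their summed level was 3850 CPM (counts scaled to a common library size) in Ogt iKO replicate 1, 1494 in Ogt iKO replicate 2, and 2404 and 2669 in the controls. Total counts ran from 14668489 to 16504204 per library. Between groups 13 of the 15 fibroblast markers were not called (13.3% called, against 65.3% of all genes tested). Pdgfrb was higher in Ogt iKO (log2 fold change 1.61) and Vim was lower (-0.87). Ogt iKO replicate 1 stood apart in feeder-type RNA, with 15 of 15 markers above replicate 2, and 37 of the 43 replication genes were lower in it than in replicate 2. Without Ogt iKO replicate 1 the median log2 fold change of the members was -0.59. The Ogt iKO library then left had a lower fibroblast sum (1494 CPM) than both controls. The part of feeder RNA in the values of the replication genes was not tested.

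Of the 8 origin licensing genes, 7 were lower and 1 was not called, with a median log2 fold change of -0.57. Orc6, the smallest ORC subunit, fell most. The gene lies on chromosome 8 between 85299632 and 85308279 in GRCm38, and its level was 83.6 and 90.6 CPM after 4-OHT and 164 and 150 CPM in control. The means were 87.1 CPM ± 4.95 and 157 CPM ± 10.2 (SD, n = 2 each), and the log2 fold change was -0.85 with an SE of 0.0712 (adjusted p 2.02e-05, edgeR). Cdt1, which brings MCM rings to ORC, had 132 and 150 CPM against 237 and 240 CPM in control, a log2 fold change of -0.76 (SE 0.0711). Orc2, a core ORC subunit, had 139 and 149 CPM against 253 and 235, also -0.76 on the log2 scale. For these 3 genes each treated library lay far below both controls next to the gap between replicates.

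The other licensing genes moved less. Cdc6, the ATPase that joins ORC to load MCM rings, had a log2 fold change of -0.57, Orc3 of -0.56, Orc5 of -0.37 and Orc1, the ORC subunit that varies through the cell cycle in many cells, of -0.29. The call for Orc1 was not kept without Ogt iKO replicate 1 (-0.18, adjusted p 0.0583, edgeR) or under scaling by totals (-0.12). Orc4 did not pass the threshold, with 55.8 and 56.3 CPM in Ogt iKO and 63.6 and 59.4 in control, a log2 fold change of -0.13 (adjusted p 0.148, edgeR) that turned to 0.04 under scaling by totals. Within ORC the ratio of Orc6 to Orc4 counts, which is free of any scaling, was 1.5 and 1.61 in Ogt iKO and 2.59 and 2.52 in control. The pair was chosen as the subunits that fell most and least, which fixes the direction of this ratio, and the same holds for every ratio of subunits given here.

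**Figure D3:**
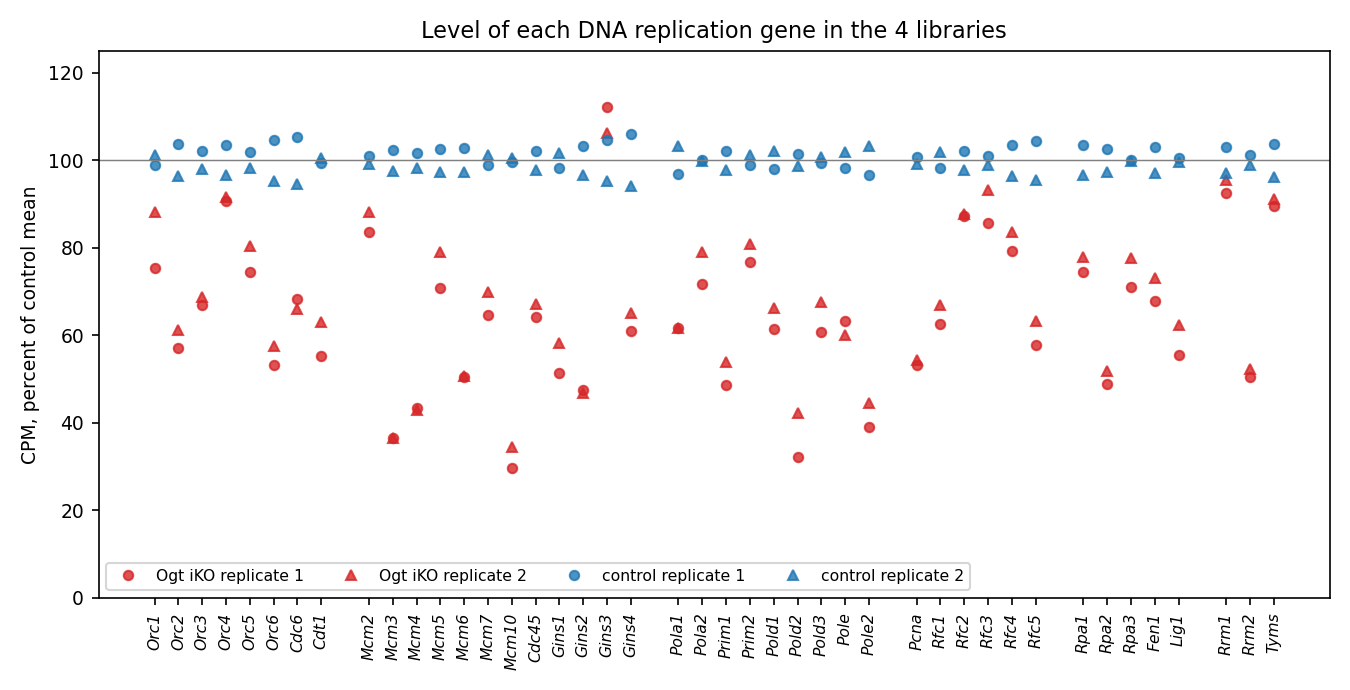
Level of each of the 43 genes in the 4 libraries, as a percent of the mean of the 2 controls (y axis, from 0), with genes on the x axis in order of role; red is Ogt iKO, blue is control, circles are replicate 1 and triangles replicate 2. The red symbols lie below the blue ones for every gene except Gins3, and the replicates of a group lie close together next to the gap between groups for most genes.

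The helicase genes held the largest falls. Of 12, counting Mcm10 with the CMG subunits, 11 were lower and 1 was not called, with a median log2 fold change of -0.77, and 4 were at least 2-fold lower. Mcm10, a factor that helps CMG helicases start to unwind, fell most of all 43 members. Located on chromosome 2 (4990724 to 5012791), it had 74.6 and 86.5 CPM in Ogt iKO against 250 and 253 CPM in control. The difference of -1.64 on the log2 scale (SE 0.0757, adjusted p 1.27e-06, edgeR) left 32.0% of the control level and placed the gene among the lowest 1.85% of genes tested.

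All 6 genes of the MCM ring were lower, but by unequal amounts. Mcm3, on chromosome 1 from 20802966 to 20820312, had 221 CPM in both Ogt iKO libraries and 620.3 and 591 CPM in the controls. It fell by 1.45 on the log2 scale (SE 0.0572, adjusted p 7.55e-07, edgeR). Mcm4, on chromosome 16, had 252 and 249 CPM against 589 and 570 CPM (log2 fold change -1.21). Mcm6 had 393 and 395 CPM against 799 and 756 CPM, a log2 fold change of -0.98. These 3 ring genes were at 36.5%, 43.2% and 50.6% of control. Mcm7 (-0.57) and Mcm5 (-0.42) fell less, and Mcm2 least, from 876 and 860 CPM in control to 725 and 765 CPM (-0.22, adjusted p 0.00926, edgeR). Mcm2 lost its call under scaling by library totals (-0.05). Transcripts of Gm5487 and of Ap4m1, a neighbour that overlaps Mcm7 on the opposite strand, together match 81.2% of its longest transcript, which makes its count uncertain.

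Levels of different genes were set side by side per kilobase (kb) of exon. In control the ring genes lay close together, from 103 CPM per kb ± 1.66 (SD, n = 2) for Mcm7 to 174 ± 6.55 for Mcm5, a span of 1.68-fold. In Ogt iKO they ran from 59.0 CPM per kb ± 0.0526 (SD, n = 2) for Mcm3 to 130 ± 9.96 for Mcm5, a span of 2.20-fold. With the longest annotated transcript as the length, the spans were 1.61-fold and 3.31-fold. The ratio of Mcm3 to Mcm2 counts was 0.708 and 0.688 in the controls and 0.305 and 0.289 in the Ogt iKO libraries. In other complexes the change went either way. The span from the lowest to the highest subunit per kb narrowed in ORC (7.72-fold to 4.98-fold), GINS (8.06 to 5.06), RFC (2.57 to 2.02) and ribonucleotide reductase (5.05 to 2.76). It also narrowed in polymerase alpha with primase (2.41 to 1.57) and polymerase delta (1.39 to 1.33), but both widened with the longest transcript as the length (2.01 to 2.45 and 1.07 to 1.61). It widened in polymerase epsilon (1.04 to 1.54) and was 3.45 and 3.54 in RPA. These spans carry no test.

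**Figure D4:**
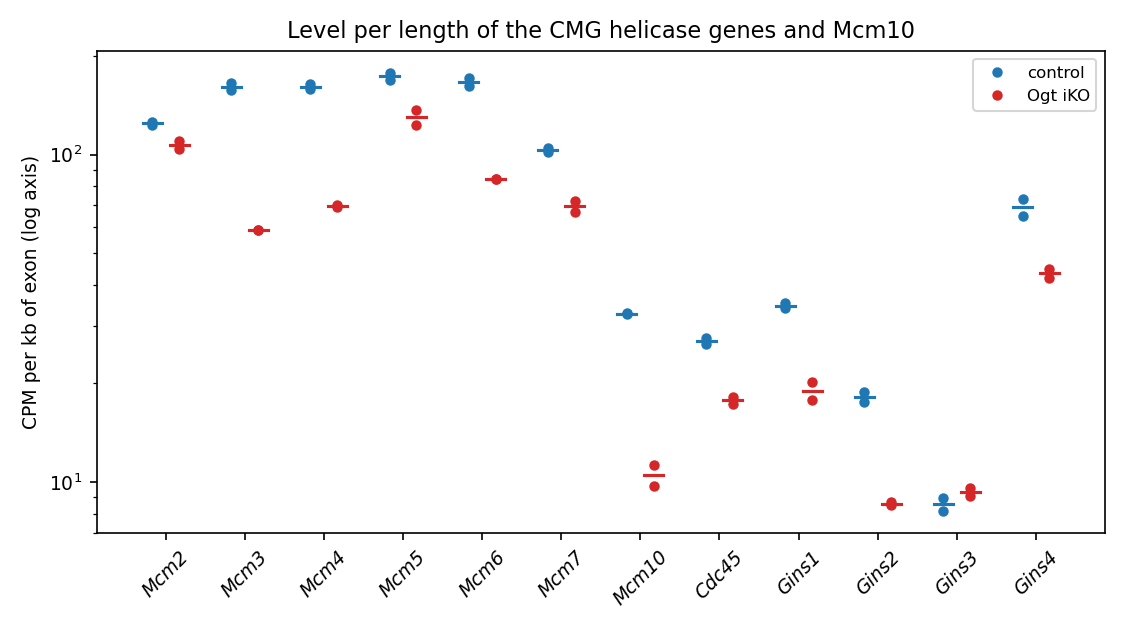
Level per kb of exon (y axis, CPM per kb, log axis) of the 11 CMG genes and Mcm10, with points for single libraries and short lines for group means; blue is control and red is Ogt iKO. The blue lines of Mcm2 to Mcm7 lie between 103 and 174, the red ones between 59.0 and 130, and Gins3 is the only gene whose red points lie above the blue ones.

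Among the partners of the ring, Cdc45 had a log2 fold change of -0.61. Of the 4 GINS genes, Gins2 had 35.5 and 34.9 CPM in Ogt iKO against 77.2 and 72.2 in control (-1.09), Gins1 had -0.87 and Gins4 -0.67. Gins3, on chromosome 8 from 95633559 to 95645059, had 26.0 and 24.6 CPM in Ogt iKO and 24.3 and 22.1 in control. The difference of 0.13 on the log2 scale (SE 0.0979, adjusted p 0.280, edgeR) did not pass the threshold, and was 0.05 without control replicate 2. Scaling by totals alone gave 0.30 with an adjusted p of 0.0253 (edgeR). It was also the lowest of the GINS genes in control, at 8.56 CPM per kb ± 0.573 (SD, n = 2), where Gins4 had 69.0 ± 5.82. The ratio of Gins2 to Gins3 counts went from 3.18 and 3.27 in the controls to 1.36 and 1.42. Of the exon length of Gins2, 67.3% lies under an exon of Gse1 on the opposite strand, and its count is uncertain if the strand was not used.

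All 9 polymerase genes were lower, with a median log2 fold change of -0.70. Pold2, the accessory subunit that bridges polymerase delta, fell most and varied most between replicates. On chromosome 11 between 5872180 and 5878256, it had 38.9 and 51.1 CPM in Ogt iKO against 122 and 119 CPM in control. The difference was -1.43 on the log2 scale (SE 0.114, adjusted p 1.60e-05, edgeR). Leaving out 1 library gave -1.66 to -1.23. Pole2, the B subunit of polymerase epsilon, had 25.2 and 28.6 CPM against 62.2 and 66.4 CPM (-1.26). Prim1, the catalytic subunit of primase, which makes the RNA primers, had 63.7 and 70.6 CPM against 134 and 128 CPM (-0.97). These 3 genes were the polymerase genes that changed most.

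The genes of the catalytic subunits of polymerases alpha, delta and epsilon fell by similar amounts, with log2 fold changes of -0.70 for both Pola1 and Pole and -0.65 for Pold1. Pold3, another subunit of polymerase delta, had -0.64, and Pola2, the B subunit of polymerase alpha, -0.41. Prim2, the large subunit of primase, fell least of the group, with 64.2 and 67.6 CPM against 82.7 and 84.6 CPM in control (-0.35). The ratio of Prim1 to Prim2 counts was 0.993 and 1.04 in Ogt iKO and 1.62 and 1.52 in control. The ratio of Pole2 to Pole counts was 0.153 and 0.184 against 0.245 and 0.252, and that of Pold2 to Pold3 was 0.304 and 0.358 against 0.585 and 0.561. With 2 libraries a group the smallest p of an exact permutation test of such a ratio is 0.333, so none was run.

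Among the 6 genes of the clamp and its loader, 5 were lower and 1 was not called, with a median log2 fold change of -0.46. Pcna, the sliding clamp, on chromosome 2 from 132249286 to 132253180, had 121 and 124 CPM in Ogt iKO against 229 and 225 CPM in control. Its log2 fold change was -0.89 with an SE of 0.0552 (adjusted p 4.91e-06, edgeR). A stretch of 51.5% of its longest transcript matches Pcna-ps2 at 95% identity or more, so reads of the gene may have been lost to that copy in all libraries. Rfc5 had 141 and 154 CPM against 255 and 234 CPM (-0.72), and Rfc1, the large loader subunit, 202 and 215 CPM against 316 and 327 CPM (-0.63). The remaining loader genes moved little. Rfc4 had a log2 fold change of -0.30 and Rfc2 of -0.19, calls that were lost without control replicate 1 (adjusted p 0.0621 and 0.101, edgeR) and under scaling by totals (-0.13 and -0.02). Rfc3 had 64.2 and 69.8 CPM against 75.8 and 74.2 CPM and did not pass (-0.16, adjusted p 0.0808, edgeR). It passed without Ogt iKO replicate 2 (-0.25, adjusted p 0.0199, edgeR) and had a value of 0.01 under scaling by totals. RFC subunits act as a single loader, and the ratio of Rfc5 to Rfc3 counts was 2.20 and 2.21 in Ogt iKO and 3.37 and 3.15 in control.

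All 5 genes of single-strand binding and strand joining were lower, with a median log2 fold change of -0.51. Rpa2, the middle subunit of RPA, which is phosphorylated at stressed forks, had 101 and 107 CPM in Ogt iKO against 211 and 201 CPM in control (-0.99, SE 0.0615, adjusted p 5.05e-06, edgeR). Rpa1, the large subunit, was the most abundant of the 3 per length and fell least, with 514 and 536 CPM against 712 and 666 CPM (-0.39), while Rpa3 had -0.43. Lig1, the ligase that seals nicks between lagging-strand fragments, had 279 and 313 CPM against 504 and 499 CPM (-0.76). Fen1, the nuclease that trims their flaps, had 127 and 137 CPM against 193 and 182 CPM (-0.51). Exons of the opposite strand cover 84.2% of the exon length of Fen1, which makes its value uncertain if the strand was not used. Other members with over 10% of their exon length so covered were Orc2 (29.8%), Rfc2 (15.1%), Rfc4 (12.7%), Orc1 (10.8%) and Rfc5 (10.7%).

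Nucleotide supply was split. Rrm2, the small subunit of ribonucleotide reductase, whose level is known to peak in S phase, had 294 and 305 CPM in Ogt iKO against 589 and 575 CPM in control. The gene lies on chromosome 12 (24708254 to 24714146) and fell by 0.96 on the log2 scale (SE 0.0561, adjusted p 4.05e-06, edgeR), with 27.9% of its longest transcript matched by near copies. Rrm1, the large subunit of the same enzyme, had 425 and 438 CPM against 472 and 445 CPM, and Tyms, thymidylate synthase, had 98.4 and 100.1 CPM against 114 and 106 CPM. Neither passed the threshold (log2 fold changes -0.09 and -0.15, adjusted p 0.208 and 0.0681, edgeR), and both changed sign under scaling by totals (0.08 and 0.02). Near copies or overlapping genes also matched 26.7% of the longest transcript of Tyms. The same share was 33.6% for Rfc5, 26.4% for Rfc2 and 26% for Cdc6. The ratio of Rrm2 to Rrm1 counts was 0.692 and 0.696 in Ogt iKO and 1.25 and 1.29 in control. Rrm2b, which encodes an alternative small subunit induced by p53, did not pass, with 210 and 164 counts after 4-OHT and 155 and 160 without (0.16, adjusted p 0.363, edgeR).

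The promoter sequences of the members were read from RefSeq windows in GRCm38.p6 that run from 250 bases before to 50 after the annotated start. Windows were matched for 36 of the 43 members, and only the first listed window of each gene was used. Each was searched on both strands for 4 E2F core words (TTCCCGC or TTCGCGC or TTGCCGC or TTGGCGC), for the NF-Y word (CCAAT) and for the NRF1 motif. E2F words can overlap each other. An E2F core was present in 21 of the 36 windows (58.3%), against 1941 of the 11446 windows of genes tested and 9.69% of all 27025 windows. At least 2 cores were present in 8 windows (22.2%), against 2.39% of the windows of genes tested. CCAAT was present in 22 (61.1%, against 38.9%), including all 8 matched helicase genes, and the NRF1 motif in 2 (5.56%, against 9.93%). These are letter matches and not measured binding sites.

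Stretches before the start of 4 genes are shown because they pair a gene that fell strongly (Mcm6), one that fell less (Mcm5) and one that did not pass (Rrm1), all with an E2F core in capitals, with the gene that fell most (Mcm10). The Mcm10 window held no E2F core, and capitals there mark CCAAT.
Mcm6, chr1:128359706-128359855, minus strand: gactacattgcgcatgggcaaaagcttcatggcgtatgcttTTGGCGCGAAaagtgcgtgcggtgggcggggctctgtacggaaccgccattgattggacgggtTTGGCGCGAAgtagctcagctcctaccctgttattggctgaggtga
Mcm5, chr8:75109329-75109449, plus strand: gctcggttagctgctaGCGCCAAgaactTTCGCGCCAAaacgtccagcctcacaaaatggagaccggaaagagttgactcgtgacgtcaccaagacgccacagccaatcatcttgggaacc
Rrm1, chr7:102441545-102441694, plus strand: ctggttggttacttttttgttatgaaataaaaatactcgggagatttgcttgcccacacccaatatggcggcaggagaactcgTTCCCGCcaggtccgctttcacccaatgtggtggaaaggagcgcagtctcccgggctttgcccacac
Mcm10, chr2:5012792-5012941, minus strand: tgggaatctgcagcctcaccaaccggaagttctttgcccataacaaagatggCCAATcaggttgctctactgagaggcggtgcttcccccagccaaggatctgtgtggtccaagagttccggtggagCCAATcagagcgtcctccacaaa

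Members with and without the core had similar medians. The 21 members with at least 1 core had a median log2 fold change of -0.63 and ran from -1.45 (Mcm3) to 0.13 (Gins3). The 15 without one had a median of -0.61 and ran from -1.64 (Mcm10) to -0.13 (Orc4). Among these 15, Orc4 and Lig1 have 3 annotated starts and Orc2, Pold2 and Fen1 have 2. Only the first listed start of each was searched, so a core at another start would have been missed.

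Other genes of replication and its control, in 7 further lists, were examined in the same fit. Together 52 of their 72 tested genes were lower (72.2%, against 32.0% of all genes tested) and 7 were higher (9.72%, against 33.2%). Their median log2 fold change was -0.46. The counts of each list below are to be read against the same shares of all genes. Of the 9 genes of origin firing and its inhibition, 6 were lower. Ticrr, which helps to recruit CDC45 to origins, went from 2830 and 2825 counts in control to 1154 and 1072 (-1.43). Gmnn, the inhibitor of CDT1, went from 1897 and 1861 counts to 945 and 875 (-1.13), so both Cdt1 and its inhibitor were lower. Topbp1 (-0.42) and Recql4 (-0.50), which act at firing as Ticrr does, had smaller log2 fold changes.

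Of the 10 genes of fork protection and alternative clamp loaders, 9 were lower, among them Chtf18 (-1.08), of an alternative clamp loader, Clspn (-0.78) and Tipin (-0.55) of the fork protection complex, and Mms22l (-0.49). Of the 9 accessory and lagging-strand genes, 7 were lower. Top2a, the topoisomerase of dividing cells, had a log2 fold change of -1.40, Rnaseh2a, which removes ribonucleotides, of -1.16, Rnaseh2b of -0.55 and Dna2 of -0.54. Other nucleotide metabolism had 7 lower genes of 10, among them Shmt1 (-1.02) and Dctd (-0.97), which feed thymidylate synthesis, and Dut (-0.59), which keeps uracil out of DNA. Samhd1, which breaks deoxynucleotides down, was the only one higher (0.61) and is named after its value was seen. Of 8 tested checkpoint genes 7 were lower, among them Hus1 (-0.77), Rad1 (-0.66), Etaa1 (-0.65) and Wee1 (-0.52), and Atrip, which was not tested, is listed at 0 counts in every library. It shares exon sequence with Trex1 on the same strand, and how its row was counted is not given in the sources used here, so no level is read from it.

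**Figure D5:**
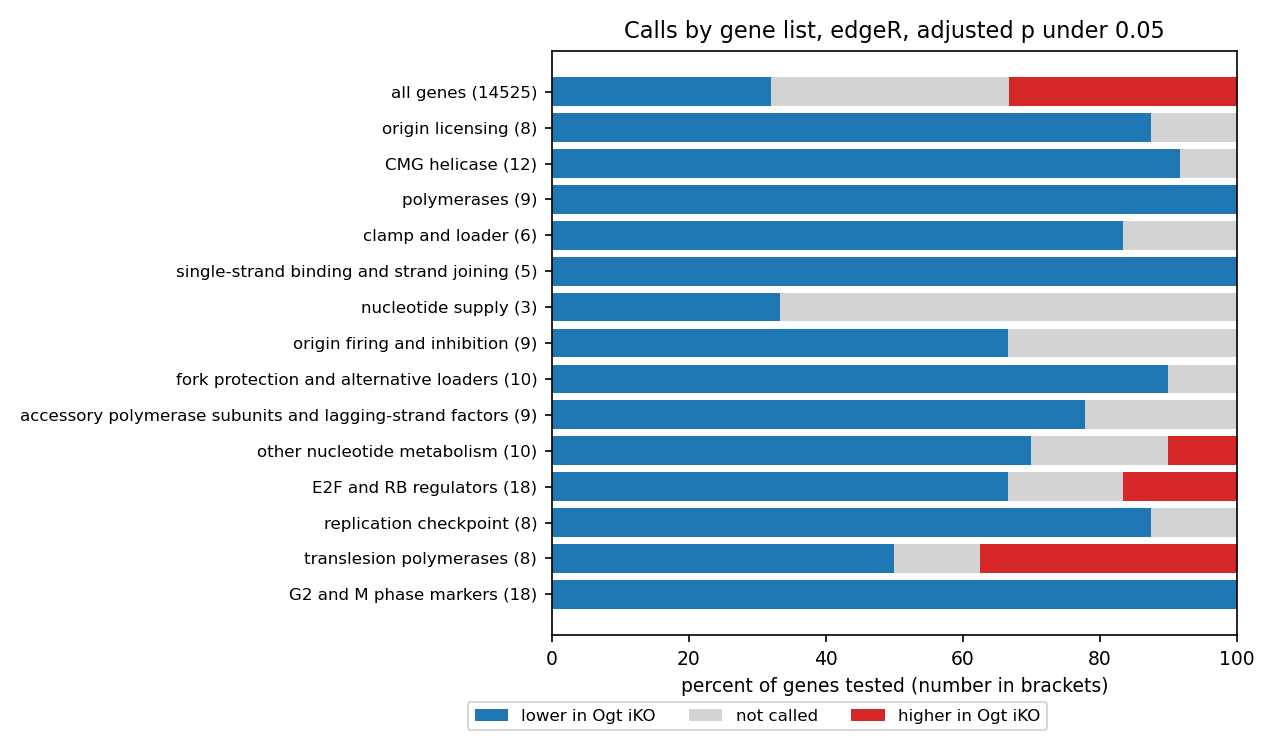
Percent of genes tested (x axis, from 0 to 100) that were lower, not called or higher in Ogt iKO, for all genes tested, the 6 groups of replication genes, the 7 further lists and the markers of G2 and M phase, with the number tested in brackets. Lower calls take 32.0% of all genes and at least 50.0% of every list except nucleotide supply (33.3%).

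Of 18 E2F and RB genes, 12 were lower (66.7%, against 32.0% of all genes tested) and 3 were higher (16.7%, against 33.2%). Ccne1, which encodes cyclin E1, a starter of S phase, went from 7172 and 6432 counts in control to 1269 and 1296, and fell by 2.49 on the log2 scale (adjusted p 4.05e-07, edgeR). E2f8, an E2F repressor, had -2.00, and E2f3, an activator, -0.93. Rb1, which restrains E2F factors, had 1072 and 930 counts against 362 and 399 and rose by 1.31 on the log2 scale. The other higher genes, named after their values were seen, were E2f6 (0.91), a repressor, and E2f5 (0.26). Among the 8 translesion genes 4 were lower (50.0%) and 3 higher (37.5%, close to the 33.2% of all genes tested). Polk (0.97) and Rev3l (0.55), polymerase genes for damaged templates, rose, as did Polh (0.25), which is named after its value was seen. Mad2l2 (-1.34), a subunit of polymerase zeta, and Rad18 (-0.70), the ubiquitin ligase that calls translesion polymerases to PCNA, fell.

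All 18 markers of G2 and M phase were lower, where 32.0% of all genes tested were. Their median log2 fold change was -0.64, the same to 2 decimals as that of the replication genes. Nusap1 had -1.09, Ube2c -1.23, Ccnb1 -0.82 and Plk1 -0.81, all genes of mitosis. Their summed level was 3063 and 3404 CPM in Ogt iKO against 5002 and 5133 CPM in control, and that of the 43 replication genes was 6875 and 7272 CPM against 11270 and 10940 CPM. The part of the cell cycle distribution in the values of the replication genes was not tested.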

How the data were processed

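RNA-seq counts of 4 mESC libraries (2 Ogt iKO, 2 control, grouped by their titles) were used. The authors deposited raw counts per gene symbol, 1 whole number per row, with no normalization and 0 rows that name no gene. STAR, Picard and mm10 are named per the submitters' processing notes. The annotation and the strand counted are not given in the sources used here, although the kit was stranded per the labels' protocols.

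The members, lists and tests were chosen with earlier results of these data known. All genes were fitted together with edgeR 4.0.16 in R 4.3.3 (TMM scaling, filterByExpr, quasi-likelihood test, Benjamini-Hochberg adjustment), tested on simulated data. CPM use TMM-scaled library sizes. SE is the size of the log2 fold change over the root of F. Values per library are given for up to 3 called members of each group with the largest rise or fall, the least changed member and any not called. From each other list the 4 called genes with the smallest adjusted p are named, with Rrm2b, Gmnn and Ogt. The values of 1 gene that this rule names are not reported here. Positions came from RefSeq and exon lengths and overlaps from GENCODE M21, both GRCm38. Near copies were sought with blastn (95% identity over at least 100 bases). Total counts ran from 14668489 to 16504204. A count of 0 allows up to 3 counts (0.182 to 0.205 CPM), for counting error only. Replicates differed by more than sampling noise (chi-square per degree of freedom 7.41 and 4.30). Alternatives were other scalings, DESeq2 1.42.0, other filters, a robust spread, the replicate block, stricter thresholds, another length and leaving out each library.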

Additional observations from a re-analysis of the deposited data

How the results depend on the processing

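The count of 38 lower members moved to 24 when a fold of at least 1.5 was also asked, where 16% of all genes were lower. Leaving out each library in turn gave 36 to 39, with 0 higher throughout. Scaling by library totals alone, which moved the median of all genes from 0.02 to 0.19, gave 34 lower (22.6% of all genes) and 1 higher (42.1% of all genes). It turned the sign of Orc4 (0.0355), Rfc3 (0.0066), Rrm1 (0.0802) and Tyms (0.0214). Of the 43 members 34 kept call and sign in every alternative fit.

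Median log2 fold changes under scaling by totals were -0.47 for all members, -0.398 for licensing, -0.598 for the helicase, -0.527 for polymerases, -0.293 for the clamp and loader, -0.338 for strand binding and joining and 0.0214, a turn of sign, for nucleotide supply. For licensing and polymerases they were -0.577 and -0.707 with RLE size factors, -0.526 and -0.655 with upper-quartile scaling, -0.593 and -0.722 with DESeq2, -0.584 and -0.713 with no filter, and -0.558 and -0.687 with a filter of 1 CPM in 2 libraries. Nucleotide supply had -0.106 with upper-quartile scaling and -0.173 with DESeq2. With 1 library left out the medians ran from -0.698 to -0.588 for all members, -0.63 to -0.52 for licensing, -0.861 to -0.694 for the helicase, -0.731 to -0.66 for polymerases, -0.53 to -0.414 for the clamp and loader, -0.586 to -0.448 for strand binding and joining and -0.211 to -0.101 for nucleotide supply. The lone library of a group is then assumed to vary like the other group.

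With the replicate number as a block 38 members were lower and the median was -0.64. Deviations of same-numbered libraries had a correlation of 0.0859 over all genes and 0.308 over the members. The labels tie the numbers to no shared source and there are only 2 pairs, so the numbers are not taken to pair the samples. At 0 counts, depth allows up to 3 counts.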
